A study of Mus musculus with 4 samples.

Results

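The HSP90 chaperones were followed through all 4 libraries of the series: Hsp90aa1 and Hsp90ab1, the cytosolic HSP90 alpha and beta, Hsp90b1, the endoplasmic reticulum form known as GRP94, and Trap1, the mitochondrial form. They are the 4 genes, of 35604 gene rows in each of 2 deposited tables, whose symbol matched these names. All 4 had an accepted estimate (status OK) in both tables. No measured value entered this choice.

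RNA was sequenced from ESC-FC1801, mouse embryonic Schwann cells of the FVB/N strain background. The cells carry Nf2Flox/Flox and were made NF2-/- in culture with Ad-Cre, an adenovirus that delivers Cre recombinase. Every group shares this deletion, so no library with intact Nf2 in the line was compared. Cultured cells had DMSO or 1 µM NXD30001, the compound the series names as an HSP90 inhibitor, for 24 hours, in serum-free medium that held neuregulin and forskolin. Mice with ESC-FC1801 tumours were dosed 3 times a week over 4 weeks, with vehicle or with NXD30001 at 100 mg/kg. The ages and strain of the mice, the time from the last dose and any pooling of animals were not given in the sources used here. Each group is 1 library of 1 line, so there is no replicate error and no test was run. "Higher" and "lower" are said of single libraries.

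HSP90 proteins are dimeric chaperones that bind ATP at their N-terminal domain and help kinases, steroid receptors and other client proteins reach an active fold. Heat shock factor 1 drives the cytosolic genes and is itself held in check by chaperones, so that cells given an HSP90 inhibitor are known to make more heat shock RNA. Hsp90b1 belongs instead to the unfolded protein response of the endoplasmic reticulum, and Trap1 works in the mitochondrial matrix.

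Promoters were read first, since the paralogues answer to different stress pathways. RefSeq promoter windows (GRCm38.p6, 250 bases before to 50 after the start site) matched 2 of the 4 genes, Hsp90b1 and Trap1, and are printed here in the direction of transcription with motif letters in capitals. Each of 3 patterns was searched on both strands. The ER stress element, CCAAT and CCACG with 9 bases of any kind between them, to which ATF6 is known to bind, was in 39 of 32851 windows (0.119%). The 3-unit heat shock element, GAA, TTC and GAA or else TTC, GAA and TTC with 2 bases between units, was in 198 (0.603%), and the cAMP response element, TGACGTCA, chosen after the Trap1 window had been read, in 588 (1.79%). The CCAAT box is contained in the ER stress element. The Hsp90b1 window (chr10:86705395-86705694, minus strand) held the ER stress element at 2 places, starting at -212 and, in the reverse direction, at -107. It also held 6 CCAAT boxes counted on both strands, of which 2 are parts of those elements, and 26 windows (0.0791%) held 6 or more. The Trap1 window (chr16:4077761-4078060, minus strand) held a single cAMP response element at -47 and no ER stress element, heat shock pattern or CCAAT box.
Hsp90b1: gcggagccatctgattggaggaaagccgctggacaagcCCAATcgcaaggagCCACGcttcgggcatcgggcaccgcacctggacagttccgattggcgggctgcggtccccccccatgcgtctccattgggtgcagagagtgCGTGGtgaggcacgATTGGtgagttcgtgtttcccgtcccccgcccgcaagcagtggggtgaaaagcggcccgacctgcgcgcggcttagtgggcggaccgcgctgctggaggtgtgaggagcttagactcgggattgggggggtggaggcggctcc
Trap1: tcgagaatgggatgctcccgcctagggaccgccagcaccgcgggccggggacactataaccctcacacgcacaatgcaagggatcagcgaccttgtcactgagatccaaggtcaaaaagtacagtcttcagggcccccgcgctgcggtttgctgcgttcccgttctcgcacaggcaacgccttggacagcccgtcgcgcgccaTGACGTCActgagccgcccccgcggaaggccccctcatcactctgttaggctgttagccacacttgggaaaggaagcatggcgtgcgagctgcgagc

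Levels are FPKM as deposited by the authors, fragments scaled to transcript length and library size, so genes can be ordered within a library. The tables were made separately and no level was tested across them. Differences are treated minus untreated log2(FPKM + 1). This scale shrinks the change of low genes, and 2-fold means a difference of 1 on it, so a gene can be past 2-fold in its plain FPKM and not be counted. Compared genes reached 1 FPKM in at least 1 library of the pair, 12676 in culture and 15550 in tumours. The median difference of all compared genes was -0.25 in culture and -0.03 in tumours. FPKM does not give the depth of a library. Genes whose deposited error is that of 1 fragment in each library would put the treated library at 1.05 times the depth of the DMSO library (46 genes) and 1.19 times that of the vehicle library (70 genes). This takes the deposited error as counting error alone, which was not tested, so the depth ratios are not established.

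The inducible cytosolic gene Hsp90aa1 (ENSMUSG00000021270, chromosome 12 from 111928815 to 111940938, mm9) was at 1187 FPKM with DMSO and at 2117 FPKM after NXD30001 in culture. In the tumours it was at 672 FPKM with vehicle and at 667 FPKM after NXD30001. The treated culture was thus 1.78 times the DMSO culture, a difference of 0.83, while the tumour libraries differed by -0.01. An error can be read from the authors' deposited table as the log fold divided by its statistic. For Hsp90aa1 in culture this implied error was 0.49 on the log2 scale, and the 95% range it gives (1.96 errors either way) runs from a ratio of 0.921 to 3.46.

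The constitutive cytosolic gene Hsp90ab1 (ENSMUSG00000023944, chromosome 17 from 45704724 to 45710220) was at 2281 FPKM with DMSO and at 3111 FPKM after NXD30001 in culture. The tumours had 1497 FPKM with vehicle and 1460.1 FPKM after NXD30001. The culture ratio was 1.36, a smaller step than that of Hsp90aa1, with a difference of 0.45, and the tumour difference was -0.04. Both cytosolic genes were higher in treated culture, where 40.6% of all compared genes were higher by any amount, against 47.3% in tumours. That direction rests on the deposited scale: scaled to the summed FPKM of each library, of which 1 row holds 87.2% in the treated culture, both were lower (-0.45 and -0.84), while centring on the median or scaling to the upper quartile left them higher.

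Hsp90b1 (ENSMUSG00000020048, chromosome 10 from 86148346 to 86168254) differed from the cytosolic forms in both settings. In culture it measured 2560.0 FPKM with DMSO and 2069 FPKM after NXD30001. The vehicle tumour had 774 FPKM and the treated tumour 520.5 FPKM. The treated library was lower each time, at 0.808 of the DMSO level in culture and 0.673 of the vehicle level in tumours. The differences were -0.31 and -0.57, beside implied errors of 0.20 and 0.16. In culture -0.31 lay close to the median of all genes (-0.25), and 59.4% of compared genes were lower. In tumours 52.7% were lower, and among 379 genes at 300 to 1000 FPKM only 32 had a lower difference than Hsp90b1.

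Trap1 (ENSMUSG00000005981, chromosome 16 from 4032839 to 4077827) was the scarcest paralogue. It was at 19.1 FPKM with DMSO and at 8.96 FPKM after NXD30001 in culture. The tumours had 77.9 FPKM with vehicle and 79.98 FPKM after NXD30001. On the deposited scale the culture difference of -1.01 made Trap1 the single paralogue past 2-fold in either setting. Of compared culture genes 24.8% were at least 2-fold lower and 12.6% at least 2-fold higher. These are 3149 and 1603 genes, and once differences were centred on the median 2331 were lower and 2256 higher. Its implied error was 0.83, so that the 95% range runs from a ratio of 0.152 to 1.45, and with a pseudocount of 5 the difference was -0.79. No paralogue was past 2-fold in tumours, where 7.32% of genes were 2-fold higher and 6.93% lower.

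**Figure D1:**
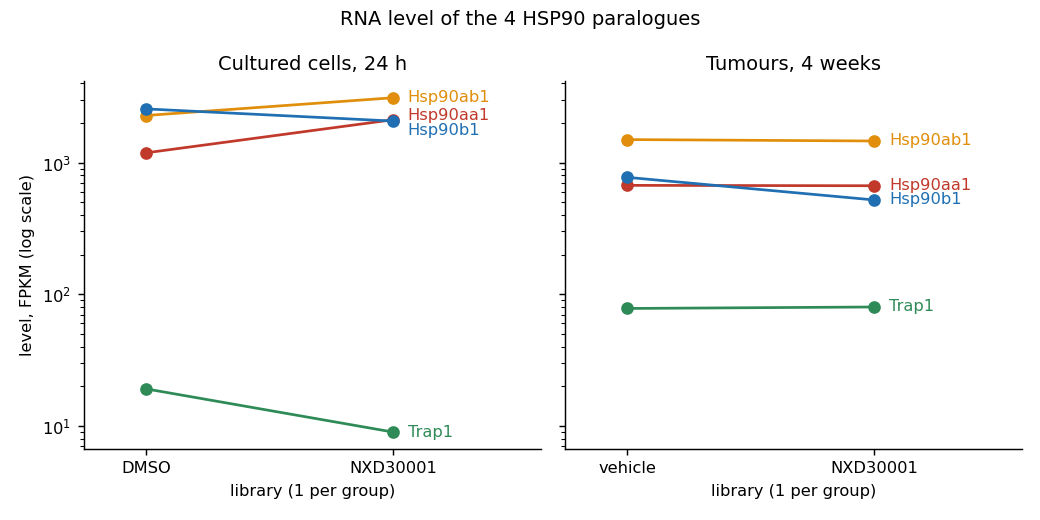
Level in FPKM on a log axis of the 4 HSP90 paralogues in the untreated and treated library of cultured cells (left) and tumours (right), with 1 library per point. On the deposited scale Hsp90aa1 and Hsp90ab1 slope upward in culture and Trap1 slopes downward from 19.1 to 8.96 FPKM, while in tumours Hsp90b1 alone slopes visibly, from 774 to 520.5 FPKM.

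The order of the paralogues within a library changed with treatment in both settings. With DMSO Hsp90b1 was highest, ahead of Hsp90ab1 and Hsp90aa1. With NXD30001 in culture Hsp90ab1 was highest, and Hsp90aa1 and Hsp90b1 lay at nearly the same level. In the vehicle tumour Hsp90ab1 was highest, then Hsp90b1 and Hsp90aa1, and in the treated tumour Hsp90aa1 was above Hsp90b1. With 1 library per group there is no spread against which to set the narrow steps between Hsp90aa1 and Hsp90b1. Trap1 came last in every library.

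The make-up of HSP90 RNA moved away from the endoplasmic reticulum form in both settings. Hsp90b1 made up 42.3% of the summed FPKM of the 4 genes with DMSO and 28.3% with NXD30001. In tumours its share was 25.6% with vehicle and 19.1% with NXD30001. Hsp90aa1 went from 19.6% to 29.0% in culture and from 22.2% to 24.5% in tumours. The cytosolic sum was 1.35 times Hsp90b1 with DMSO and 2.53 times with NXD30001, and 2.80 and 4.09 times in the vehicle and treated tumours. These ratios are taken within a library and do not depend on how libraries are scaled. In culture the cytosolic sum was 1.51 times higher in the treated library, whereas in tumours it was 0.981 of the vehicle value, so there the ratio moved through Hsp90b1.

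**Figure D2:**
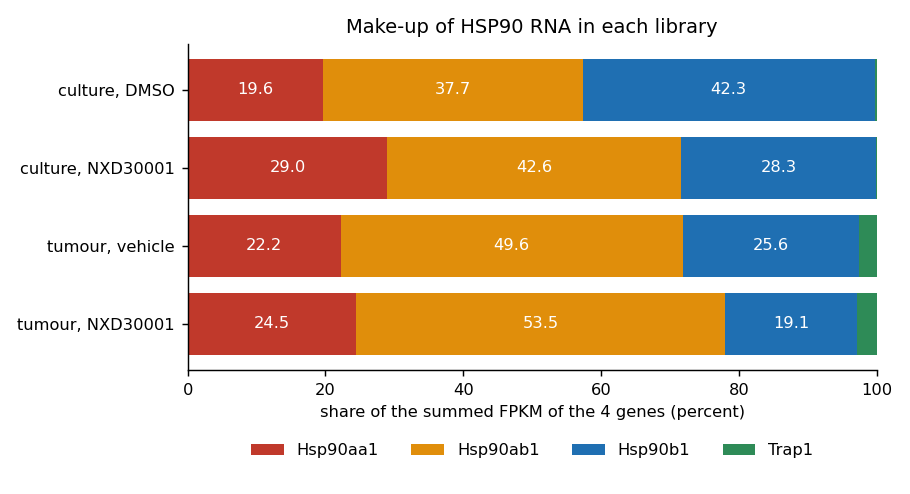
Share in percent of the summed FPKM of the 4 HSP90 paralogues in each of the 4 libraries, 1 bar per library. The blue Hsp90b1 segment is shorter in the treated than in the untreated library in culture (28.3% against 42.3%) and in tumours (19.1% against 25.6%).

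Among all genes the cytosolic and endoplasmic reticulum forms were very abundant. In culture with DMSO Hsp90b1 ranked at 113, Hsp90ab1 at 125 and Hsp90aa1 at 184 of 12676 genes, and with NXD30001 they ranked at 119, 99 and 116. In tumours Hsp90ab1 ranked at 79 with vehicle and 84 with NXD30001 of 15550, Hsp90aa1 at 204 and 192, and Hsp90b1 at 167 and 269. Trap1 ranked at 4929 and 6249 in culture and at 2239 and 2104 in tumours. The difference of Hsp90aa1 in culture was above that of 84.3% of compared genes and that of Hsp90ab1 above 74.3%. Among the 220 culture genes at 1000 FPKM or more, however, 70 had a higher difference than Hsp90aa1 and 86 a higher one than Hsp90ab1. At that level 57.3% of culture genes were past 2-fold in either direction, so neither paralogue stood at the edge of the spread.

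**Figure D3:**
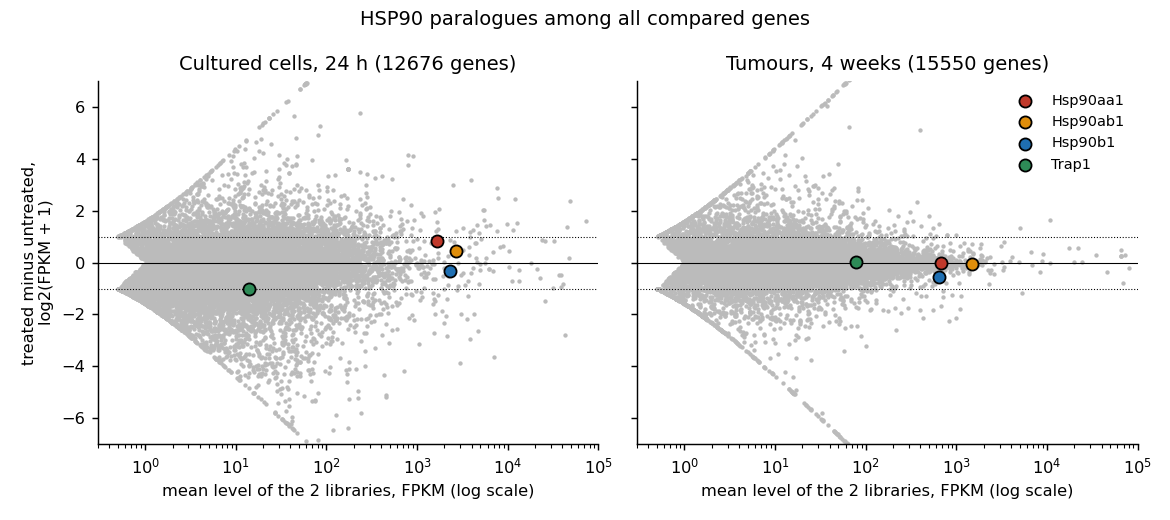
Treated minus untreated difference on the log2(FPKM + 1) scale against the mean level in FPKM (log axis) for all compared genes (grey) and the 4 HSP90 paralogues (coloured), with dotted lines at 2-fold; 147 culture and 82 tumour genes lie outside the axes. The coloured points sit inside the grey cloud in both panels, with Trap1 at the lower dotted line in culture and Hsp90b1 at -0.57 toward the lower edge of the tumour cloud.

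The authors' deposited table called Hsp90ab1 in culture and Hsp90b1 in tumours, and none of the other 6 paralogue comparisons. Such a call sets 1 library against 1 other and does not compare conditions. It called 2.75% of compared genes higher and 7.14% lower in culture, and 3.14% and 2.45% in tumours. The call of Hsp90ab1 rested on an implied error of 0.03. Only 1 of the 160 culture genes at 1000 FPKM or more with such an error had a smaller one, and their median was 0.99. With its own error the ratio of 1.36 spans 1.31 to 1.42, and with the median error of its level 0.353 to 5.27. Hsp90aa1, with the larger ratio, was not called. The tumour call of Hsp90b1 rested on an error of 0.16, where 46 of 370 genes of its level had a smaller one and the median was 0.30. With that median error its ratio spans 0.449 to 1.01.

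**Figure D4:**
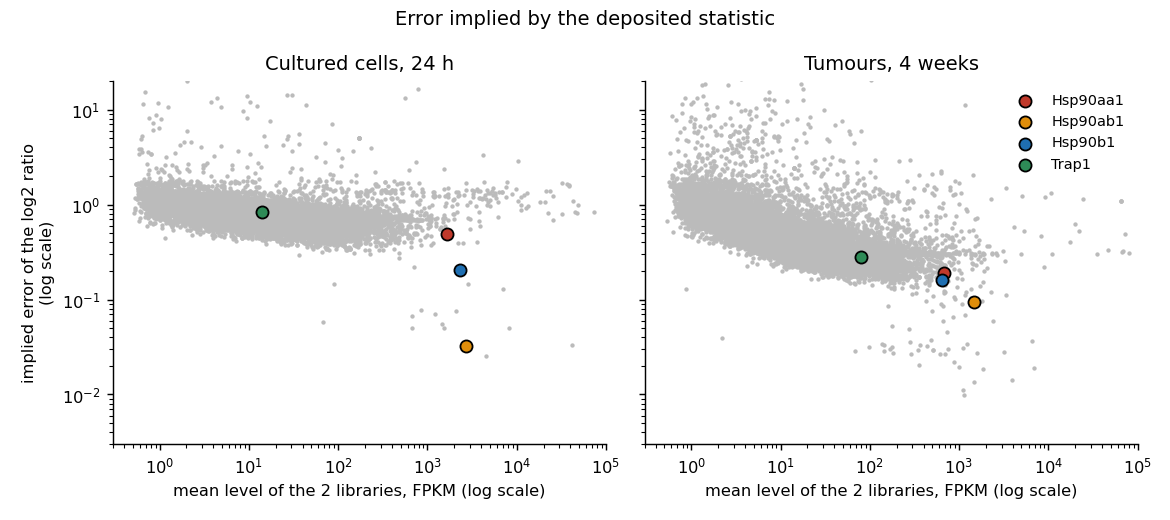
Error of the log2 ratio implied by the deposited statistic (log axis) against mean level in FPKM (log axis) for compared genes (grey) and the 4 HSP90 paralogues (coloured); 630 culture and 666 tumour genes have no such error and 42 and 56 lie outside the axes. Hsp90ab1 in culture lies at 0.03, far below the band of genes near its level, and Trap1 lies within the band in both panels.

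Reads of the cytosolic paralogues cannot be assigned to them with certainty. Of the 36-base stretches in the longest coding transcript of Hsp90aa1 (3281 bases, GENCODE M21), 61.6% also occur in a transcript of another gene, all of them processed pseudogenes, which are copies of the spliced RNA. For Hsp90ab1 the share was 10.8%, for Hsp90b1 16.2% and for Trap1 0.832%, and no such stretch was shared between the paralogues themselves. The sources used here do not state how the authors' counting placed such reads. The authors' tables list 4 copies of Hsp90aa1. AL606724.1, called Gm12346 in GENCODE, was at 641 FPKM with DMSO and at 1516 FPKM after NXD30001 in culture. In the tumours it was at 135 and 122.0 FPKM. AC124976.1, called Gm5844 there, was at 129 and 246 FPKM in culture and at 84.2 and 85.6 FPKM in tumours. The remaining copies were listed at 0 throughout. Both copies with a level had the direction of Hsp90aa1 in culture. As reads of shared stretches cannot be assigned with certainty, these values are not independent of Hsp90aa1.

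Counting the copies with their parent genes, an alternative chosen after seeing the data, gave Hsp90aa1 a sum of 1957 FPKM with DMSO and 3879 FPKM after NXD30001, a ratio of 1.98 in place of 1.78. The copies held 39.4% and 45.4% of these sums. For Hsp90ab1 with its 3 listed copies the culture ratio was 1.38. The tumour ratios were 0.982 and 0.969. The order of the cytosolic genes in treated culture depended on this choice: Hsp90ab1 was 1.47 times Hsp90aa1 on the genes' own rows but 0.852 times with the copies included. With DMSO the ratio was 1.92 and 1.23, and in tumours Hsp90ab1 stayed the higher gene, at 1.93 with vehicle and 1.90 with NXD30001.

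Other rows overlap the remaining paralogues. The Hsp90b1 locus is given for 2 further rows, AC152453.1 at 1.88 and 1.10 FPKM and AC152453.3 at 0.541 and 0.230 FPKM in culture, both far below Hsp90b1. The Trap1 locus is shared with Dnase1, a secreted nuclease gene, at 0.643 and 0.593 FPKM in culture and at 3.90 and 5.25 FPKM in tumours. It is also given for AC087900.1, which had 6.05 FPKM with DMSO and was listed at 0 in the treated culture. That row lay within a factor of 4 of Trap1 with DMSO, and whether reads were split between them was not tested. The sources used here do not state whether strand was kept.

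The measured cytosolic partners of HSP90 were higher in treated culture on the deposited scale, as the cytosolic paralogues were. Their list held 19 genes: HSP70, HSP110, J-domain and small heat shock genes, and the HSP70 cofactor genes Bag1, Bag3, Hspbp1 and St13. In culture 15 were measured. All 15 were above 0 and 7 at least 2-fold higher, with a median difference of 0.85. Those not measured were the HSP70 genes Hspa1a (0.0605 and 0.651 FPKM) and Hspa1b (0.0490 and 0 FPKM), and Hspb1 and Hspb8, listed at 0 in both culture libraries. Of all compared culture genes 40.6% were higher and 12.6% at least 2-fold higher, with a median of -0.25. Hspa8, the constitutive HSP70, was at 556 FPKM with DMSO and at 4453 FPKM after NXD30001. The cytosolic HSP90 sum was 6.23 times Hspa8 with DMSO and 1.17 times with NXD30001, a ratio 5.31 times lower. In the tumours the ratio was 1.56 and 1.54. Hsph1, an HSP110 gene, was at 73.7 and 748 FPKM in culture, and Cryab, a small heat shock protein gene, at 258 and 1013 FPKM. The implied error of Hsph1 in culture was 132.7 on the log2 scale, beside a median of 0.69 for genes at 300 to 1000 FPKM. The authors did not call it there. In tumours Hsph1 was lower (137 and 67.7 FPKM), Cryab higher (157 and 370 FPKM), Dnaja4, a J-domain gene, at 10.6 and 5.04 FPKM, and the list's median was -0.06.

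The heat shock factor genes were low beside the cytosolic paralogues. Hsf1 was at 3.92 FPKM with DMSO and at 8.46 FPKM after NXD30001 in culture, with 48.5 and 47.2 FPKM in the tumours. Hsf2 was at 10.3 and 21.4 FPKM in culture and at 10.0 and 10.7 FPKM in tumours. On the log2(FPKM + 1) scale the culture differences were 0.94 and 0.99, just short of 2-fold, although both genes were past 2-fold in plain FPKM. Hsf4 was measured only in tumours, at 2.52 and 1.89 FPKM. The activity of a factor is not read from its RNA.

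Genes listed as co-chaperones, most of which load clients onto HSP90 or set its ATP cycle, were mixed. In culture 27 of 30 were measured, with 3 past 2-fold higher, 2 past 2-fold lower and a median of 0.32, where 12.6% and 24.8% of all genes were past 2-fold and the median was -0.25. The largest differences belonged to Flcn at 2.44 and 11.8 FPKM, Fkbp5, an immunophilin, at 2.75 and 0.192 FPKM, and Ttc4 at 12.6 and 5.01 FPKM. Flcn, the folliculin tumour suppressor, was counted on this list although its protein is known as an HSP90 client. The authors' deposited table called Flcn and Fkbp5. In tumours none of 29 was past 2-fold and the median was 0.01, with Tomm34 at 21.5 and 33.4 FPKM, the cyclophilin gene Ppid at 28.3 and 18.5 FPKM and Rpap3 at 13.1 and 8.56 FPKM.

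Client proteins of cytosolic HSP90 did not share a direction at the RNA level. In culture 19 of 22 kinase and receptor genes were measured, 2 past 2-fold higher and 5 past 2-fold lower, with a median of -0.20 that was close to the -0.25 of all genes, of which 12.6% and 24.8% were past 2-fold. Cdk6, a cell cycle kinase, was at 155 and 36.1 FPKM, Axl, a receptor kinase, at 129 and 40.8 FPKM and Pdgfrb, a growth factor receptor, at 1.98 and 7.73 FPKM. In tumours 2 of 22 were 2-fold higher and 1 lower, with a median of -0.03, close to that of all genes, of which 7.32% and 6.93% were past 2-fold. Egfr was at 42.3 and 18.8 FPKM, Pdgfrb at 20.9 and 45.9 FPKM and Erbb3, the neuregulin receptor, at 12.4 and 26.3 FPKM.

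**Figure D5:**
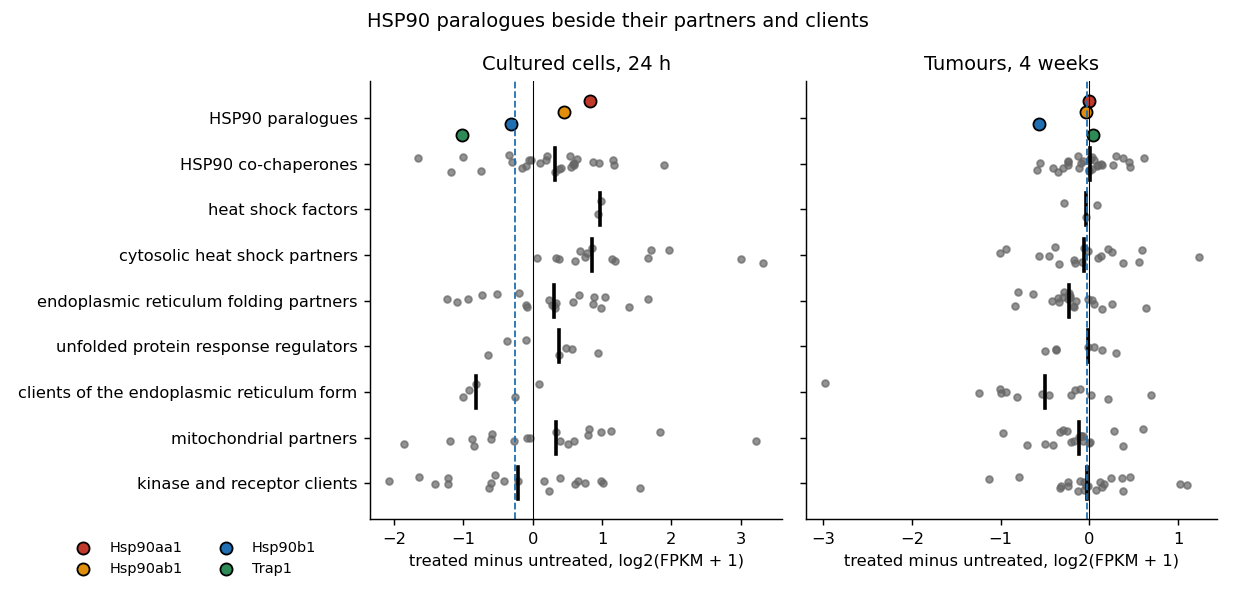
Treated minus untreated difference on the log2(FPKM + 1) scale for the 4 HSP90 paralogues (coloured) and the measured genes of each partner or client list (grey, bar at the list's median) in culture and tumours; the dashed line is the median of all compared genes. In culture all 15 measured cytosolic heat shock partners lie to the right of 0, and in tumours 17 of 22 endoplasmic reticulum partners lie to the left of it with Hsp90b1.

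Hsp90b1 and its partner Hspa5 differed in direction in culture and were both lower in the treated tumour. Hspa5, the BiP chaperone that works beside GRP94, was at 316 FPKM with DMSO and at 1004 FPKM after NXD30001, while Hsp90b1 was lower. Their ratio, Hsp90b1 over Hspa5, went from 8.10 to 2.06. In tumours Hspa5 was at 1376 and 789.8 FPKM, and the ratio was 0.562 and 0.659. Of 21 measured folding partners in culture, 13 were above 0 and 8 below (40.6% and 59.4% of all genes). Of these partners 3 were past 2-fold higher and 2 past 2-fold lower (12.6% and 24.8% of all genes), with a median of 0.31 beside -0.25. Dnajc3, a J-domain partner of BiP, was at 27.9 and 74.9 FPKM and Sil1, its nucleotide exchange factor, at 4.27 and 1.24 FPKM. In tumours 17 of 22 were lower and 5 higher, none past 2-fold, with a median of -0.22, where 52.7% of all genes were lower and their median was -0.03. There Sil1 was at 24.2 and 13.1 FPKM and Cnpy3, which cooperates with GRP94 and whose locus is given for 21 rows, at 40.5 and 63.7 FPKM.

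The ER stress element of the Hsp90b1 promoter recurred in 6 of the 19 folding partners with a promoter window, and in no window of the other 7 partner and client lists. The matches, each with 5 bases on either side, show the shared letters in capitals, and a match in the reverse direction reads CGTGG first.
Hsp90b1, first: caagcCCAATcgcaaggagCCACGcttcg
Hsp90b1, second: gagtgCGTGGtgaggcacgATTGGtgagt
Hspa5: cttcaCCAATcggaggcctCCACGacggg
Calr: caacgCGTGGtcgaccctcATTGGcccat
Canx: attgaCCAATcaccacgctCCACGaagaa
Pdia6: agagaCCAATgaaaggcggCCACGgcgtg
Dnajc3: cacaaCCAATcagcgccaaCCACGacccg
Creld2: cttctCGTGGcgagcctcaATTGGtccac

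The 7 genes with the element did not move as 1 group in culture. There 5 were higher and 2 lower (40.6% and 59.4% of all compared genes). They ran from Hspa5 at 1.66 and Dnajc3 at 1.39 through Calr, the calreticulin gene, at 0.98 to Canx, the calnexin gene, at -0.19 and Hsp90b1 at -0.31. In tumours all 7 were lower, with differences of -0.80 for Hspa5, -0.64 for Creld2, -0.57 for Hsp90b1, -0.35 for Dnajc3, -0.25 for Calr, -0.18 for Canx and -0.01 for the disulphide isomerase gene Pdia6. These genes were picked by sequence and their count is a description, beside the 52.7% of all tumour genes that were lower. A match in a window is a description of its letters.

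None of 7 regulators of the unfolded protein response was past 2-fold on the log2(FPKM + 1) scale in either setting. Their medians were 0.38 in culture and -0.01 in tumours, beside -0.25 and -0.03 for all genes. Atf6b, past 2-fold in plain FPKM, was at 1.04 and 2.91 FPKM in culture, Ern1, the IRE1 sensor, at 2.68 and 1.36 FPKM and Eif2ak3, the PERK kinase, at 3.38 and 5.49 FPKM. In tumours Atf6 was at 15.3 and 10.5 FPKM, Atf4 at 254 and 196 FPKM and Ern1 at 16.1 and 12.2 FPKM.

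Proteins known to need GRP94 for folding include Toll-like receptors, integrins and insulin-like growth factors. Only 5 of 17 such genes were measured in culture. Of these 1, Igf1, was at least 2-fold lower on the log2(FPKM + 1) scale, where 24.8% of all compared culture genes were so. Itga4, past 2-fold in plain FPKM only, was at 13.8 and 6.79 FPKM and Itgav at 137 and 77.7 FPKM. Igf1 had 1.01 FPKM with DMSO, barely over the minimum of 1 FPKM, and was listed at 0 in the treated culture. In tumours 14 were measured, 11 below 0 and 3 at least 2-fold lower, where 52.7% and 6.93% of all genes were so. Macrophage markers were lower beside them (9 of 9, summed 2033 and 1630 FPKM), and their part in these values was not tested. Tlr7, an endosomal receptor of immune cells, was at 29.99 and 2.92 FPKM, Igf1 at 15.2 and 5.83 FPKM and Itgb7, an integrin of leukocytes, at 52.4 and 25.5 FPKM. Itgav was higher there, at 99.5 and 161 FPKM, and the authors' deposited table called it.

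Trap1 was lower in culture, while its mitochondrial partners were split, 10 of 19 above 0 and 9 below. Of all compared culture genes 40.6% were higher and 59.4% lower. Hspd1, the mitochondrial HSP60, was at 288 and 364 FPKM and Hspa9, the mitochondrial HSP70, at 136 and 195 FPKM. Trap1 was 0.140 times Hspa9 with DMSO and 0.0461 times with NXD30001, a ratio 3.05 times lower. In tumours Hspd1 was at 197 and 170.4 FPKM and Hspa9 at 166 and 117 FPKM, and Trap1 was 0.471 and 0.683 times Hspa9. In culture 3 of the 19 partners were 2-fold higher and 2 were 2-fold lower (12.6% and 24.8% of all genes), with a median of 0.34 beside -0.25. Hspe1, the HSP60 cofactor, was at 57.6 and 208.9 FPKM, Pink1, a kinase of mitochondrial quality control, at 4.82 and 53.3 FPKM, and Hscb, an iron-sulfur co-chaperone, at 26.0 and 6.48 FPKM. In tumours 5 of 19 were above 0 and 14 below, with a median of -0.12 beside -0.03 for all genes, of which 52.7% were lower. None of the 19 was past 2-fold on the log2(FPKM + 1) scale, and the largest differences belonged to Clpx (24.7 and 12.1 FPKM, past 2-fold in plain FPKM), Grpel1 (20.7 and 12.4 FPKM) and Pink1 (24.4 and 37.6 FPKM).

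The heat shock pattern was found in the window that Hspd1 and Hspe1 share on chromosome 1, and in those of Hsph1 and the co-chaperone gene Chordc1, but in neither paralogue window. Of genes with a window, these are 2 of 14 mitochondrial partners, 1 of 16 cytosolic heat shock partners and 1 of 27 co-chaperones. Among all windows the share was 0.603%. In the Hspe1 direction the shared site, which holds overlapping forms of the pattern with the first in capitals, reads as follows, and the Chordc1 site is shown beside it.
Hspe1: gtccgTTCtaGAAccTTCcggaa
Chordc1: aaccgGAAcgTTCggGAAaattc
Differences of these 4 genes in culture were 3.33 for Hsph1 (with an implied error of 132.7), 1.84 for Hspe1, 0.87 for Chordc1 and 0.34 for Hspd1. In tumours they were -1.01, -0.30, 0.01 and -0.21.

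Few genes can be called alike in pattern from 2 differences, but the nearest were taken by distance in the plane of culture and tumour differences. Among 6220 other genes at 5 FPKM or more in all 4 libraries, Ubb, a polyubiquitin gene, lay nearest to Hsp90aa1, at 50.4 and 91.7 FPKM in culture and 771 and 762 FPKM in tumours. D19Ertd737e and Degs1 followed. Ccnd3, Asl and Zfp275 were nearest to Hsp90ab1, and Sh3d19, Atic and Sdcbp to Hsp90b1. AC130536.1, Pldn and AC141643.2 were nearest to Trap1. Within a distance of 0.25 lay 331 genes for Hsp90aa1, 533 for Hsp90ab1, 206 for Hsp90b1 and 288 for Trap1.

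The make-up of the samples moved beside these results. In culture the summed level of 6 proliferation genes, Mki67 among them, went from 1875 to 61.8 FPKM. Of 10 Schwann cell markers 8 were measured in culture and 7 of those were lower, where 59.4% of all compared genes were lower. There S100b and Gfap, both defining markers, were under 1 FPKM. Of 7 endothelial markers 5, and of 9 macrophage markers 6, were listed at 0 with DMSO. In tumours the summed Schwann markers went from 139.7 to 511 FPKM with 8 of 10 at least 2-fold higher, though S100b was listed at 0 in the treated tumour and under 1 FPKM with vehicle. Endothelial markers went from 70.7 to 28.1 FPKM (6 of 7 lower), macrophage markers from 2033 to 1630 FPKM (9 of 9 lower) and fibroblast markers from 3214 to 2500 FPKM (4 of 5 lower). Of all compared tumour genes 52.7% were lower and 7.32% at least 2-fold higher. Erythroid markers went from 315 to 5.10 FPKM (4 of 5 lower), and Alas2, a haem synthesis gene, was the exception at 0.610 and 4.72 FPKM. Their part in the differences of the paralogues, the lower Hsp90b1 of the treated tumour included, was not tested, and fewer cells of a type cannot be told apart here from less RNA per cell.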

How the data were processed

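RNA was measured in 4 libraries, 1 per group. Tools listed in the submitters' processing notes, without roles, are TopHat 1.2.0, Cufflinks 1.0.2, Cuffdiff and CASAVA, with mm9 as the build. Each deposited table holds FPKM made by the authors (fragments per transcript length and library size) for an untreated and a treated library. Further deposited columns, per the file headers, are the natural log fold, the ratio, a p-value, and a statistic and q-value treated as a score, since q reached 2.05. In 100% of the rows checked, statistic and fold were of opposite sign. Titles put samples into groups, although the sample type label calls all 4 cultured cells. Culture columns were matched by the codes in the titles, tumour columns by the control and compound names.

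Left out were 705 culture and 347 tumour rows of status FAIL, and 61 and 449 of status LOWDATA. Differences were log2(FPKM + 1), treated minus untreated, for genes that reached 1 FPKM in at least 1 library. The implied error is the absolute natural log fold over its statistic, converted to log2. It refers to the plain ratio and covers no spread between animals or cultures. Relative depth used genes whose implied error was within 0.01 (natural log) of that of 1 fragment per library. A list's median is given beside that of all compared genes, and no test was run. Repeated symbols used the row of highest level.

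The paralogues, lists and alternatives were chosen with earlier results of these data known. Named genes were the paralogues, 6 stress genes, the 3 measured members of each list with the largest difference per comparison and the 3 nearest in pattern. Genes of the motif and copy searches were named by those searches. Mki67 and Alas2 come from marker lists, and Itgav in tumours was added after its values were seen. Starts in the tables count from 0, since end minus start equalled the GENCODE length in 10580 of 19955 single-gene loci and the length less 1 in 268, so 1 was added. GENCODE M21 is on another build and gave only lengths, gene types and transcript sequences. Promoters are RefSeq's, on GRCm38.p6. Python 3.11.15, pandas 2.3.3, numpy 2.4.6 and matplotlib 3.10.9 were used, and the difference and count steps were tested on simulated data. The values of 1 Schwann cell marker are not reported here.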

Additional observations from a re-analysis of the deposited data

Results flagged for a closer look

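Several differences had opposite signs in culture and tumours, which differ in exposure, time and cell make-up. Of 6221 genes at 5 FPKM or more in all 4 libraries, 25.7% were higher in culture and lower in tumours, and 23.8% the reverse. Opposite signs are thus not particular to the genes named here. The contrast between settings was not tested, with 1 library per group. Hsp90aa1 had a difference of 0.83 in culture and -0.0097 in tumours, Hsp90ab1 0.45 and -0.036, and Trap1 -1.01 and 0.037. The tumour values of these 3 paralogues are smaller than their implied errors of 0.19, 0.09 and 0.28, so their sign is not resolved. Among the stress genes, Hspa8 had 3.00 and -0.012, Hsf1 0.94 and -0.040, Hspa9 0.51 and -0.50 and Hspd1 0.34 and -0.21. Hspa5 had 1.66 in culture and -0.80 in tumours, and both lie beyond 1.96 times its implied errors of 0.40 and 0.17. Those errors cover no spread between animals or cultures, so this speaks for the single libraries only. Hsp90b1 was lower in both, but its culture value of -0.31 has a 95% range of ratios from 0.612 to 1.07 and is -0.056 once centred on the median of all genes.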

How the results depend on the processing

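No paired analysis was possible because each group has 1 library. Of 44 alternative values for the paralogues, 37 kept their sign and moved by less than the median implied error of their level. That limit is wide in culture, 0.99 for Hsp90b1, so its move from -0.31 to -0.056 on centring is among the 37. A changed pseudocount could hardly move Hsp90aa1, Hsp90ab1 or Hsp90b1 at their levels, so those alternatives tested little. Scaling each library to its summed FPKM turned Hsp90aa1 and Hsp90ab1 in culture to -0.45 and -0.84, moved Hsp90b1 and Trap1 there to -1.59 and -2.11, and turned Trap1 in tumours to -0.063. That sum is set by few rows: 1 row, AC147020.1, holds 87.2% of it in the treated culture, and the shift for every culture gene is -1.29. The cytosolic direction in culture thus held under the 2 other scalings but not this one. Centring on the median and upper quartile scaling turned Hsp90aa1 in tumours to 0.021 and 0.011.

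Counts of genes past 2-fold moved by over 1.5 times in 12 of 32 cases. In culture, 1603 higher and 3149 lower became 908 and 1694 with a pseudocount of 5, 954 and 1865 without rows that share a locus, and 399 and 7608 with summed FPKM scaling. In tumours, 1139 and 1077 became 451 and 424 with that pseudocount, 555 and 532 without shared loci, and 734 and 675 with a minimum of 5 FPKM. List medians turned sign in 6 of 64 cases, and 1 other moved, the GRP94 clients in culture without shared loci (-0.08). The lists were not rescaled to summed FPKM or to the upper quartile, so these cases leave out the scaling that turned the cytosolic paralogues. The summed FPKM shift of -1.29 in culture is larger in size than the highest partner or client list median there, 0.97. The reversals were the GRP94 clients in culture without a minimum level (0.033), mitochondrial partners in culture without shared loci (-0.42), kinase clients when centred (0.046 in culture, 0.0029 in tumours) or in tumours without shared loci (0.0086), and unfolded protein response regulators in tumours when centred (0.016). Counting pseudogene copies with their parents, chosen after seeing the data, kept the sign of both cytosolic genes. The cause of these shifts was not tested.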
